A study of Arabidopsis thaliana with 12 samples.

Results

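GA2OX6 (AT1G02400), a gibberellin-inactivating enzyme gene, and PSK2 (AT2G22860), a gene for a precursor of the growth peptide phytosulfokine, are 2 growth regulator genes of Arabidopsis thaliana that were picked by locus out of the 2424 genes listed in the deposited tables. Both were chosen because the tables list them as changed, so their levels against Col are given here as a description, with no test. The tables compare RNA from roots of 8-day-old seedlings of 3 transgenic lines with Col, the wild type, all grown on 1/2 MS medium in darkness, with 3 libraries per genotype. LBD29-OE carries Pro35S:LBD29-6Gly and overexpresses LBD29 (AT3G58190), a transcription factor of lateral root formation. MYB2-OE carries Pro35S:MYB2 and expresses MYB2 (AT2G47190) in excess, the gene of an MYB protein induced by drought and abscisic acid. MYB2-SRDX carries Pro35S:MYB2-SRDX, that is MYB2 joined to the SRDX repressor motif, and its label calls the transgene dominant negative. The viral 35S promoter is active in most plant tissues, so none of the transgenes is restricted to the cells that normally use the factor. The labels do not say how many independent transformants stand behind a line.

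Gibberellins are diterpenoid hormones that promote cell elongation. GA 20-oxidases and GA 3-oxidases make the bioactive forms, and GA 2-oxidases such as GA2OX6 inactivate them by hydroxylation. Bioactive gibberellin binds GID1 receptors, which leads to the breakdown of the DELLA growth repressors. Phytosulfokine is a sulfated peptide cut from secreted precursors and perceived at the cell surface by the receptor kinase PSKR1, and it is known to promote root elongation and cell division in culture.

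Each table lists only genes called by the authors, so a gene that is not listed has no library value for that line. GA2OX6 was listed for MYB2-OE and MYB2-SRDX, PSK2 was listed for MYB2-OE, and neither was listed for LBD29-OE. Both MYB2 tables repeat the authors' log2 fold change and Q-value (an adjusted p-value) of LBD29-OE against Col, which gives a value for both genes in that line without library levels. Levels are in FPKM, fragments scaled to transcript length and library size, and are therefore comparable between genes per length. Depth per library is not given in the files.

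Both genes lie on the plus strand, GA2OX6 on chr1:486800-489651 and PSK2 on chr2:9737583-9738384 in the RefSeq annotation of TAIR10.1. GA2OX6 has a spliced form of 3 exons with 990 coding bases (329 codons) and a form of 2 exons with 798 coding bases, both with an intron of 1355 bases. PSK2 has 2 exons and 264 coding bases (87 codons). The deposited values are per gene, so the GA2OX6 forms are not separated. Because both genes stood higher in a line that overexpresses a MYB factor, the 300 bases before each annotated gene start are shown (RefSeq, TAIR10.1, plus strand, chr1:486500-486799 and chr2:9737283-9737582), with motif matches in capitals.
GA2OX6: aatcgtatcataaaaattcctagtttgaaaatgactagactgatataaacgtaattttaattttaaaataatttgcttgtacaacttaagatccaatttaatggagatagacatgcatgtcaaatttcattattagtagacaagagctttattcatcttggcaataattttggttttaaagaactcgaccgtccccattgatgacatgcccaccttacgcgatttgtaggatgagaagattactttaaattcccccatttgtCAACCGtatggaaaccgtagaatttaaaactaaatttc
PSK2: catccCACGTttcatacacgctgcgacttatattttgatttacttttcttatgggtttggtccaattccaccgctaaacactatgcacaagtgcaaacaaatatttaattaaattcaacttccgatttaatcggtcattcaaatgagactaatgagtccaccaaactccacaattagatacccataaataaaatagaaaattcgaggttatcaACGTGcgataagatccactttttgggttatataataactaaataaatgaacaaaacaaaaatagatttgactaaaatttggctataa
The motifs searched on both strands were the MYB core type TAACTG, the related type CNGTTA, the further type CNGTTG, the LBD box GCGGCG and the motif ACGTG, the core of the abscisic acid response element. Matches to TAACTG are also matches to CNGTTA on the other strand. The GA2OX6 window held 1 match to CNGTTG, on the minus strand, 38 to 33 bases before the start. Of 27437 windows of this length before protein-coding genes, 23.7% held CNGTTG. The PSK2 window held 2 matches to ACGTG, 295 to 291 bases before the start on the minus strand and 87 to 83 bases before it on the plus strand. At least 1 match to ACGTG was held by 25.6% of all windows, and the share with 2 or more was not computed. No match was found in either window to TAACTG (in 9.85% of all windows), to CNGTTA (30.7%) or to GCGGCG (1.97%). These matches describe letters only and no binding was measured. No other protein-coding gene overlapped either window.

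The transgenes were read first, because both genes are described against them. MYB2 measured 1.01, 0.48 and 0.59 FPKM in the Col libraries, 636, 375 and 585 FPKM in MYB2-OE replicates 1 to 3, and 445, 538 and 533 FPKM in the MYB2-SRDX libraries whose columns end in 1, 2 and 3. MYB2 was thus far above Col in every library of both MYB2 lines, 767 and 729 times in the means. Reads of the transgene and of the endogenous gene are not separated in these values. LBD29 measured 558, 603 and 477 FPKM in LBD29-OE against 2.55 to 3.08 FPKM in Col. Some libraries stood apart in other genes. MYB2-OE replicate 2 held LBD29 at 109 FPKM, while replicates 1 and 3 had 1.82 and 1.93 FPKM. All 3 seed markers (CRA1, OLEO1, OLEO2) were listed for MYB2-SRDX, summing to 3.98 FPKM in library 1 and 0 in libraries 2 and 3. The 3 listed green tissue markers of 8 (RBCS1B, RBCS2B, LHCB2.1) summed to 26.0 FPKM in that library and to 1.59 and 1.19 FPKM in libraries 2 and 3. The Col libraries summed to 9.21, 9.08 and 6.02 FPKM, so library 1 lay above and libraries 2 and 3 below every Col library. None of 7 root markers stood in a table, so the labelled tissue could not be checked on them.

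GA2OX6 was higher than Col in MYB2-OE and lower than Col in MYB2-SRDX. The Col libraries measured 15.94, 14.05 and 15.67 FPKM. MYB2-OE replicates 1, 2 and 3 measured 37.5, 25.1 and 31.1 FPKM. MYB2-SRDX libraries 1, 2 and 3 measured 4.39, 2.33 and 3.66 FPKM. The same Col libraries serve in both comparisons. The 3 groups did not overlap: the lowest MYB2-OE library was 1.58 times the highest Col library, and the lowest Col library was 3.2 times the highest MYB2-SRDX library. Among genes listed higher for MYB2-OE 93.7% likewise had all line libraries above all Col libraries, and among genes listed lower for MYB2-SRDX 88.8% had all of them below, so separation is the usual state of a listed gene. In roots measured in bulk, fewer cells of a type and less RNA per cell cannot be told apart.

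**Figure D1:**
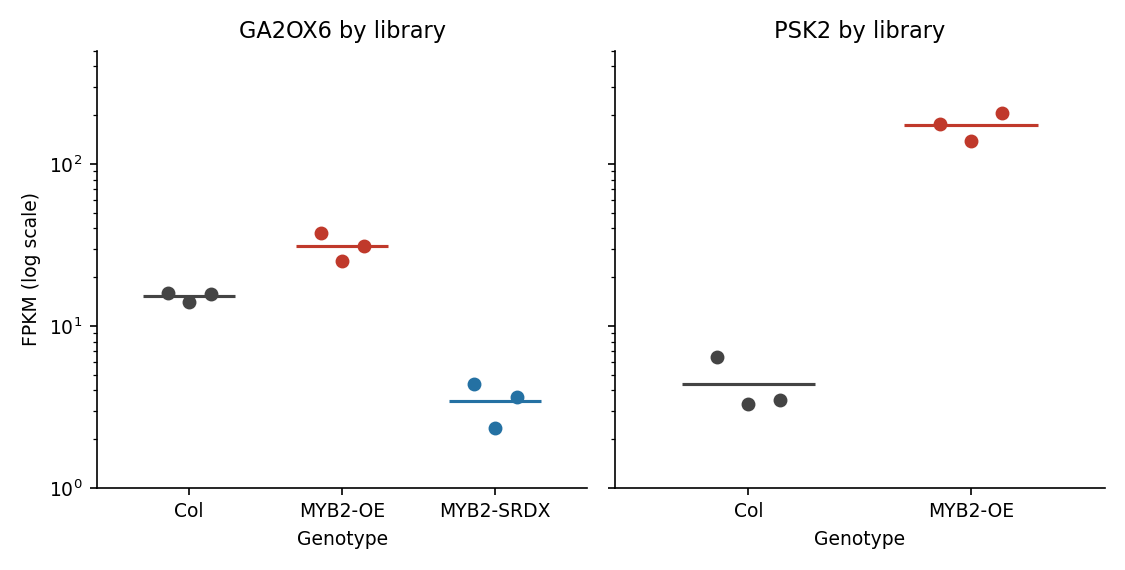
FPKM of GA2OX6 and PSK2 in each library on a log axis, by genotype; each point is 1 library and each line is the mean of 3. GA2OX6 falls into 3 separate levels with means of 15.2 (Col), 31.2 (MYB2-OE) and 3.46 FPKM (MYB2-SRDX), while PSK2 goes from 4.39 to 174 FPKM.

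As group means, GA2OX6 went from 15.2 ± 1.02 FPKM in Col to 31.2 ± 6.17 FPKM in MYB2-OE, a ratio of 2.05, and to 3.46 ± 1.04 FPKM in MYB2-SRDX, where Col was 4.40 times higher (SD, n = 3). For GA2OX6 the log2 fold changes in the authors' deposited table were 1.04 (Q = 1.31e-111) in MYB2-OE and -2.13 (Q = 9.06e-155) in MYB2-SRDX. The difference from Col was therefore larger, on the log2 scale, in the repressor line than in the overexpressor. Between these lines the ratio of mean FPKM was 9.03, and the lowest MYB2-OE library was 5.73 times the highest MYB2-SRDX library. In MYB2-OE the value lay close to the 2-fold line of the authors' list. Without MYB2-OE replicate 1 the log2 ratio of mean FPKM was 0.89 and without Col replicate 2 it was 0.98, so the gene would not have reached 2-fold. In MYB2-SRDX the log2 ratio stayed between -2.35 and -1.92 when any 1 library was left out.

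In LBD29-OE the authors' deposited table gave GA2OX6 a log2 fold change of -0.59 (Q = 2.03e-21), that is 0.664 of Col, which is under the 2-fold line. The order of the levels was thus MYB2-SRDX, LBD29-OE, Col and MYB2-OE from low to high. The spread of LBD29-OE is unknown, so whether it stands apart from its neighbours in this order cannot be said. The endogenous MYB2 gene had a log2 of -0.42 (Q = 0.104) in LBD29-OE in the same table.

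PSK2 was low in Col and among the strongly expressed listed genes in MYB2-OE. Col libraries measured 6.4, 3.28 and 3.5 FPKM, and MYB2-OE replicates 1, 2 and 3 measured 177, 139 and 206 FPKM. The groups lay far apart, the lowest MYB2-OE library being 21.8 times the highest Col library. Of the genes listed higher for MYB2-OE, 93.7% likewise had all line libraries above all Col libraries. The mean went from 4.39 ± 1.74 to 174 ± 33.2 FPKM (SD, n = 3), a ratio of 39.6, and the authors' deposited table gave a log2 fold change of 5.31 with Q listed at 0. Col replicate 1 was the highest Col library, and without it the Col mean was 3.39 FPKM. With any 1 library left out the log2 ratio of means lay between 5.13 and 5.68. In LBD29-OE the authors' deposited table gave PSK2 a log2 fold change of 0.80 (Q = 5.75e-09), a ratio of 1.74 to Col, under the 2-fold line. PSK2 was not listed for MYB2-SRDX, so the authors called no change of it there in either direction. It has no value for that line, so an opposite course within their thresholds could not be looked for.

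The genes changed rank relative to each other. In Col, GA2OX6 was 3.46 times as high as PSK2 per length, and in MYB2-OE, PSK2 was 5.57 times as high as GA2OX6. By line mean FPKM, PSK2 ranked 24 and GA2OX6 172 of the 1271 genes listed for MYB2-OE, where by Col mean they had ranked 475 and 248. By deposited log2, PSK2 ranked 39 and GA2OX6 625 of the 666 genes listed higher, whose median absolute log2 was 1.64. In MYB2-SRDX, GA2OX6 ranked 127 of the 492 genes listed lower, and 20 of the 131 of these with a group mean of at least 10 FPKM. PSK2 therefore lay near the top of its table and GA2OX6 near the end of the higher genes of MYB2-OE.

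**Figure D2:**
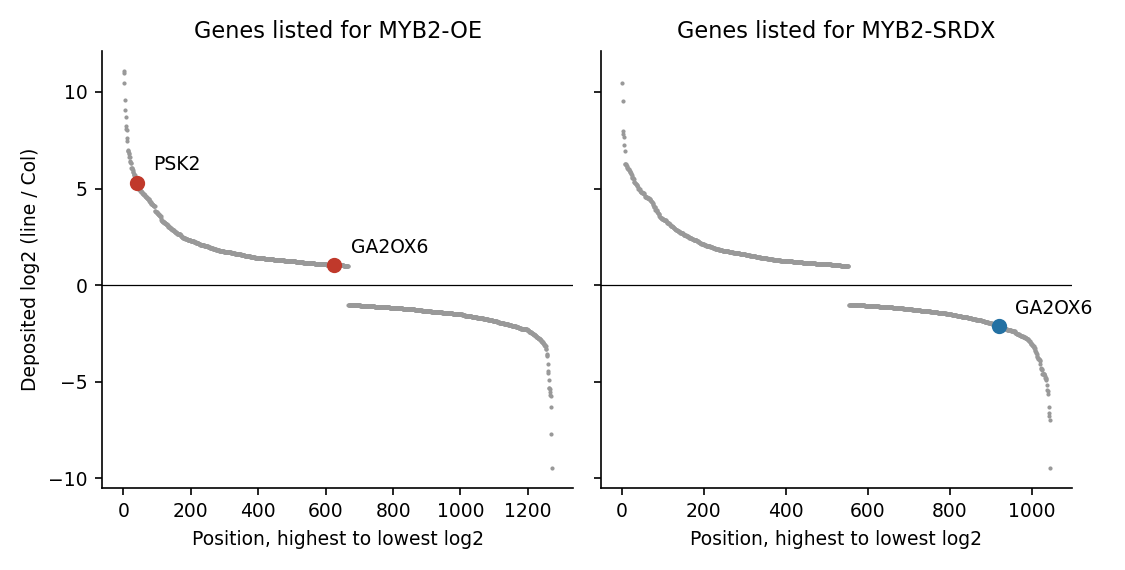
Deposited log2 fold change of every gene listed for MYB2-OE (left) and MYB2-SRDX (right), ordered from highest to lowest; grey points are genes and coloured points the members. PSK2 (5.31) lies on the steep upper end, GA2OX6 near the 2-fold edge in MYB2-OE (1.04) and further down in MYB2-SRDX (-2.13).

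Both genes had their lowest MYB2-OE value in replicate 2, the library with the lowest MYB2 (375 FPKM). That library is also the one with LBD29 at 109 FPKM. Leaving it out raised the mean of GA2OX6 to 34.3 FPKM and that of PSK2 to 191 FPKM. The highest value of GA2OX6 was in replicate 1, as for MYB2, whereas PSK2 was highest in replicate 3. In MYB2-SRDX the lowest GA2OX6 value was in library 2, which had the highest MYB2 (538 FPKM), and the highest in library 1, which had the lowest MYB2 (445 FPKM) and the seed and green tissue transcripts. Without library 1 the MYB2-SRDX mean of GA2OX6 was 2.995 FPKM. With 3 libraries per line no relation between transgene and target level was tested, and the part of library composition was not tested. The coefficient of variation of GA2OX6 in MYB2-OE was 19.7% and that of PSK2 19.1%, against a median of 24.7% over the 839 listed genes with a line mean of at least 1 FPKM.

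Other GA 2-oxidase genes changed in MYB2-OE in both directions. Of 11 gibberellin inactivation genes, 3 were listed higher (GA2OX4 and the methyltransferase gene GAMT2 beside GA2OX6) and 1 lower (GA2OX1). Of annotated protein-coding genes 2.37% were listed higher and 2.20% lower for this line. Of the genes listed for it 52.4% were higher and 47.6% lower. GA2OX4 went from 0.35, 0.77 and 0.46 FPKM in Col to 2.13, 1.78 and 1.87 FPKM in MYB2-OE. The GA2OX4 groups did not overlap, as for 93.7% of the genes listed higher for MYB2-OE. Its ratio of means was 3.66, larger than that of GA2OX6, at a far lower level. GA2OX1 went from 0.91, 1.26 and 1.37 FPKM to 0.62, 0.54 and 0.33 FPKM, also without overlap, as did 89.4% of the genes listed lower for MYB2-OE. Its log2 ratio with a pseudocount of 0.1 was -0.91 without MYB2-OE replicate 3 and -0.99 without Col replicate 3. GA2OX6 was thus the most abundant of the 3 listed GA 2-oxidase transcripts in both genotypes. GAMT2, which methylates gibberellins, stayed under 0.5 FPKM in every library (0.27 to 0.46 in MYB2-OE and 0.03 to 0.13 in Col). For MYB2-SRDX, GA2OX6 was the 1 listed inactivation gene, where lower genes made up 47.1% of the table and higher genes 52.9%. Of annotated protein-coding genes 2% were listed higher and 1.78% lower for MYB2-SRDX. For LBD29-OE, GA2OX8 was the 1 listed inactivation gene, with 1.99, 1.13 and 1.61 FPKM in Col and 0.63, 0.66 and 0.98 FPKM in the line. GA2OX8 did not reach 2-fold in FPKM with a pseudocount of 0.1 (log2 of -0.97). The lower genes made up 58.2% of the LBD29-OE table and the higher genes 41.8%. Of annotated protein-coding genes 1.21% were listed higher and 1.69% lower for LBD29-OE.

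GA2OX6 and its relatives differ enough in sequence that long shared stretches are absent. The coding sequence of GA2OX6 was 63.3% identical to that of GA2OX4 over 922 aligned bases and 59.9% to that of GA2OX1, and the longest identical runs in the transcripts were 11 and 23 bases. Across the other 6 GA 2-oxidase genes compared, coding identity ranged from 56.7 to 63.3%. For PSK2 the closest relative was PSK6, at 74.9% identity over 255 aligned bases and a longest identical run of 18 bases. The sources used here give neither read length nor the handling of multiply mapped reads.

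Of 9 late synthesis genes, 1 was listed higher and 1 lower for MYB2-OE, beside 2.37% higher and 2.20% lower of annotated protein-coding genes. GA3OX2, which makes bioactive gibberellin, went from 15.99, 14.68 and 12.67 FPKM in Col to 4.21, 5.33 and 4.11 FPKM in MYB2-OE. Every MYB2-OE library lay below every Col library, as for 89.4% of the genes listed lower for MYB2-OE. Col was 3.18 times higher in the mean. The authors' deposited table gave GA3OX2 a log2 of -1.66 in MYB2-OE and, repeated from the other comparison, -0.97 (Q = 2.99e-48) in LBD29-OE, just under the 2-fold line. GA20OX1, which acts a step earlier, was low throughout, at 0.33, 0.43 and 0.61 FPKM in Col and 1.12, 1.55 and 1.99 FPKM in MYB2-OE. Its groups did not overlap, as for 93.7% of the genes listed higher for MYB2-OE. Thus an inactivation gene and a synthesis gene that stood at similar levels in Col (GA2OX6 at 15.2 and GA3OX2 at 14.4 FPKM) stood at 31.2 and 4.55 FPKM in MYB2-OE.

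Of the whole list of 43 gibberellin genes, 5 were listed higher and 2 lower for MYB2-OE, 0 higher and 3 lower for MYB2-SRDX, and 1 higher and 1 lower for LBD29-OE. Over all annotated protein-coding genes, 2.37% were listed higher and 2.20% lower for MYB2-OE. For MYB2-SRDX these shares were 2% higher and 1.78% lower, and for LBD29-OE 1.21% higher and 1.69% lower. The median log2 of the listed members was 1.08 in MYB2-OE, beside 1.03 over all its listed genes. The latter lies by the cut-off by construction, since 666 listed genes were past 2-fold higher and 605 past 2-fold lower. It does not give the usual size of a change, and the median absolute log2 of the higher genes was 1.64. None of the 5 early synthesis genes, 3 GID1 receptors, 2 F-box genes and 5 DELLA genes stood in any table. In all, 2424 genes stood in any table, beside 27562 annotated protein-coding genes, so absence is the usual state of a gene. SWEET14, a sugar transporter gene whose protein also carries gibberellin, followed the direction of GA2OX6 in both MYB2 lines at a low level. It measured 0.64, 0.44 and 0.33 FPKM in Col, 1.67, 0.48 and 0.82 FPKM in MYB2-OE and 0.11, 0.11 and 0.19 FPKM in MYB2-SRDX. The MYB2-OE value of replicate 2 lay within the Col range, and the recomputed log2 ratio with a pseudocount of 0.1 was 0.94 for that line. Its relative SWEET13 was listed lower for MYB2-SRDX, with 0.38 to 0.67 FPKM against 0.48 to 1.70 FPKM in Col, so the groups overlapped. GASA6, a gibberellin-responsive gene, was listed higher for LBD29-OE on 1 library, with 1.31 FPKM in replicate 2 and 0.16 and 0.11 FPKM in the others, the Col range being 0.11 to 0.21 FPKM. LBD29-OE replicate 2 was also the library in which the 6 listed green tissue markers summed to 257 FPKM, where replicates 1 and 3 had 10.08 and 13.3 FPKM and the Col libraries 97.5 to 128 FPKM, and the part of this in the GASA6 value was not tested.

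**Figure D3:**
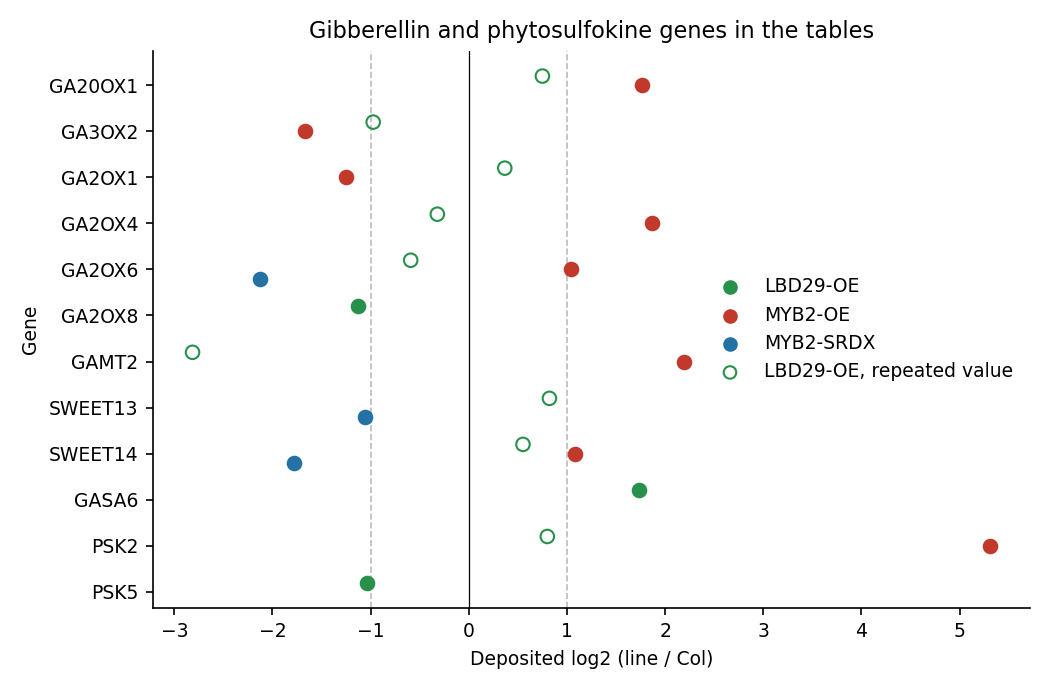
Deposited log2 fold change against Col of the listed gibberellin and phytosulfokine genes; filled points are listed in that line's own table, open points are LBD29-OE values repeated in the MYB2 tables, and dashed lines mark 2-fold. GA2OX6 lies on both sides of 0 in the MYB2 lines (1.04 and -2.13), and PSK2 at 5.31 is the furthest point.

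Annotation in the deposited tables placed further genes beside GA2OX6. The KEGG orthology term of gibberellin 2beta-dioxygenase was carried by GA2OX6, GA2OX4, GA2OX1 and the oxygenase genes AT1G14120 and AT4G23340 among the genes listed for MYB2-OE. The latter pair was listed lower, at deposited log2 values of -1.68 and -2.01 in the authors' deposited table. AT4G23340 was picked out by this term after values were seen. AT1G14120 also belongs to the list of genes that inactivate other hormones, and is counted there again below. AT1G14120, a 2-oxoglutarate-dependent oxygenase gene, went from 45.2, 49.2 and 50.02 FPKM in Col to 14.2, 22.9 and 8.20 FPKM in MYB2-OE. There was no overlap, as for 89.4% of the genes listed lower for MYB2-OE. AGL15, a MADS transcription factor gene, was also chosen after its values were seen, because RefSeq gives GA2OX6 the synonym downstream target of AGL15. AGL15 measured 2.83, 3.99 and 3.52 FPKM in Col and 1.02, 2.53 and 0.98 FPKM in MYB2-OE, where replicate 2 was highest. Every MYB2-OE library lay below Col, as for 89.4% of the genes listed lower for MYB2-OE. Without MYB2-OE replicate 1 or 3 its log2 ratio with a pseudocount of 0.1 was -0.94 or -0.92.

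Of 18 phytosulfokine pathway genes (precursors, the sulfotransferase TPST, proteases, receptors and their partners), 1 was listed higher and 0 lower for MYB2-OE, 0 of either for MYB2-SRDX, and 0 higher and 1 lower for LBD29-OE. With 1 of 18 genes (5.56%) listed, beside 2.37% higher and 2.20% lower of annotated protein-coding genes for MYB2-OE and 1.21% and 1.69% for LBD29-OE, these counts say nothing of the pathway as a whole. The MYB2-OE gene was PSK2 and the LBD29-OE gene was PSK5, another precursor gene, with 9.34, 11.2 and 10.2 FPKM in Col and 4.74, 5.3 and 5.0 FPKM in the line. Those groups did not overlap, as for 89.5% of the genes listed lower for LBD29-OE, and the ratio of means was just past 2-fold (Col 2.05 times higher). Without Col replicate 2 or LBD29-OE replicate 1 the log2 ratio with a pseudocount of 0.1 was -0.95 and -0.98, so the call rests on each of these libraries. PSKR1, PSKR2 and TPST have no value in the tables, which does not say whether they were expressed.

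Other secreted growth peptide genes were set beside PSK2, from a list of 32. For MYB2-OE 2 were listed higher and 1 lower, for LBD29-OE 1 higher and 2 lower, and for MYB2-SRDX 3 higher and 0 lower. These are 9.38% of the list in each table, beside 2.37% of annotated protein-coding genes listed higher and 2.20% lower for MYB2-OE, 1.21% and 1.69% for LBD29-OE, and 2.00% and 1.78% for MYB2-SRDX. RGF4, a root meristem growth factor gene whose peptide is sulfated like phytosulfokine, went from 4.57, 5.28 and 5.74 FPKM in Col to 12.03, 10.5 and 11.7 FPKM in MYB2-OE. The RGF4 groups did not overlap, as for 93.7% of the genes listed higher for MYB2-OE. IDA, which encodes an organ abscission peptide, went from 0.06 to 0.22 FPKM in Col to 1.5, 1.17 and 1.18 FPKM in MYB2-OE. IDA was the higher gene of LBD29-OE as well, at 0.17, 0.61 and 0.66 FPKM, and overlapped Col, whereas 79.1% of the genes listed higher for LBD29-OE did not. CLE5 and AT5G05300 were the lower genes of LBD29-OE, and AT5G05300 that of MYB2-OE. CLE5 was lower in LBD29-OE, with line libraries of 7.42, 5.49 and 9.51 FPKM and Col libraries of 14.1, 16.4 and 18.0 FPKM. Without LBD29-OE replicate 2 its log2 ratio with a pseudocount of 0.1 was -0.93. The 3 loci listed higher for MYB2-SRDX (AT4G28460, AT4G37290 and AT5G05300) were highest in library 1 of that line and overlapped Col, where 62.4% of the genes listed higher had all line libraries above Col. AT4G28460 measured 25.4 FPKM there and 0.22 and 0.59 FPKM in the other libraries, below the Col range of 0.73 to 0.81 FPKM, yet the authors' deposited table gave it Q = 4.32e-69. A small deposited Q is thus no sign that all libraries of a line differ from Col. The rise of PSK2, at a ratio of 39.6, was larger than that of RGF4 (2.20) or IDA (9.87) in the same line.

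Genes that inactivate other hormones were counted beside GA2OX6, from a list of 30. For MYB2-OE 5 were listed higher and 1 lower, for MYB2-SRDX 0 higher and 3 lower, and for LBD29-OE 2 higher and 0 lower. Listed members in either direction made up 20%, 10% and 6.67% of the list, beside 2.37% higher and 2.20% lower, 2.00% and 1.78%, and 1.21% and 1.69% of annotated protein-coding genes. In MYB2-OE, DLO1, a salicylic acid hydroxylase gene, went from 2.71, 3.55 and 2.64 FPKM to 16.9, 11.0 and 18.7 FPKM, and the cytokinin oxidase gene CKX5 from 3.14, 3.54 and 2.82 FPKM to 7.85, 6.96 and 7.19 FPKM. Both were separated from Col, as were 93.7% of the genes listed higher for MYB2-OE. CYP707A4, an abscisic acid hydroxylase gene, was listed at 0 in 2 Col libraries and at 0.03 FPKM in the third, and measured 1.95, 1.45 and 4.52 FPKM in MYB2-OE. CKX2 and AT2G38240, the other higher members, stayed under 0.6 FPKM. The lower member was AT1G14120, the gene named above for its KEGG term. In MYB2-SRDX the auxin-conjugating gene GH3.17 measured 29.7, 27.0 and 23.4 FPKM where Col had 52.2, 56.1 and 56.5 FPKM, and its log2 ratio with a pseudocount of 0.1 was -0.95 without library 3. CYP707A3 and CKX1 were the other lower members, and without library 1 of that line their log2 ratios with a pseudocount of 0.1 were -0.86 and -0.73, and without Col replicate 2 they were -0.93 and -0.95. In LBD29-OE the brassinosteroid-inactivating gene CYP72C1 rose from 12.04, 11.97 and 12.5 FPKM to 37.6, 42.3 and 46.7 FPKM, and CYP707A2 was listed higher at no more than 0.40 FPKM.

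The genes most alike to GA2OX6 were sought among the 82 genes with a symbol that stood in the same tables, the MYB2-OE and MYB2-SRDX tables alone, out of 184 such genes with or without a symbol. Likeness was the root mean square difference of log2((FPKM + 1)/(Col mean + 1)) over the 9 libraries, which is 0 for identical patterns. The nearest were HVA22D (0.28), a gene related to abscisic acid-induced HVA22 of barley, LHCB2.1 (0.29), a light-harvesting protein gene, and scpl31 (0.29), a serine carboxypeptidase-like gene. G3Pp1 (0.37), a putative glycerol-3-phosphate transporter gene, and PHO1;H1 (0.39), a phosphate exporter family gene, came next. HVA22D measured 44.7, 41.2 and 45.6 FPKM in Col, 94.8, 82.5 and 84.3 FPKM in MYB2-OE and 21.3, 11.7 and 14.2 FPKM in MYB2-SRDX. scpl31 averaged 11.1 ± 1.37, 22.3 ± 2.11 and 2.06 ± 0.595 FPKM in Col, MYB2-OE and MYB2-SRDX (SD, n = 3). All 5 were high in MYB2-OE and low in MYB2-SRDX, which the choice of likeness fixes. LHCB2.1 is one of the green tissue markers above, with near-identical relatives that can share its reads, and in MYB2-SRDX it measured 1.13 FPKM in library 1 and 0.17 and 0.21 FPKM in the others.

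For PSK2 the search covered 347 genes with a symbol that stood in the MYB2-OE table alone, over 6 libraries, and left out the other genes of the 804 in that position, which have no symbol. The nearest of those searched were GSTU4, a glutathione transferase gene, at a difference of 1.08 and MYB24, a MYB factor gene, at 1.1. HSD1, a hydroxysteroid dehydrogenase gene, E12A11, a gene of the FT and TFL1 family, and RGE1, a bHLH factor gene, followed at 1.51, 1.65 and 1.66. GSTU4 measured 53.3, 24.9 and 37.0 FPKM in MYB2-OE and 1.73 to 2.78 FPKM in Col. E12A11 measured 61.0, 39.4 and 52.5 FPKM against 5.74 to 8.11 FPKM. MYB24 was listed at 0 in every Col library, so it has no ratio to Col, and averaged 11.5 FPKM in MYB2-OE. HSD1 averaged 0.183 FPKM in Col and 8.00 FPKM in MYB2-OE, and RGE1 averaged 0.0133 and 5.65 FPKM. Their ratios of means without a pseudocount, 43.6 and 423.5, were above the 39.6 of PSK2. Those of GSTU4 (18.0) and E12A11 (7.36) were below it. HSD1 is known to have an identical second copy in the genome, and reads of both copies cannot be told apart.

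**Figure D4:**
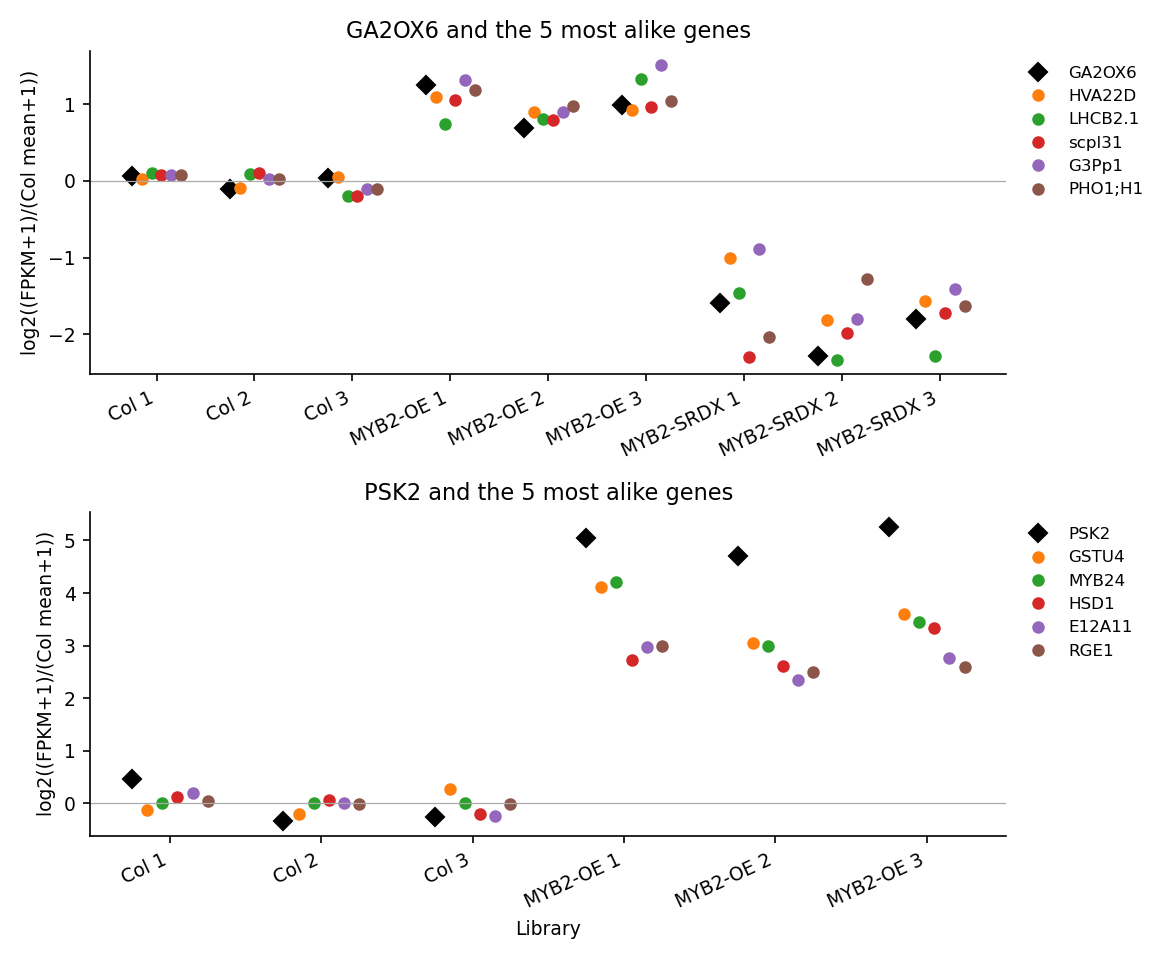
log2((FPKM + 1)/(Col mean + 1)) per library for GA2OX6 (upper) and PSK2 (lower), black diamonds, and the 5 genes most alike to each, coloured circles. The companions of GA2OX6 lie close to it in most libraries, with root mean square differences of 0.28 to 0.39. Those of PSK2 all lie below it in MYB2-OE on this scale, at 1.08 to 1.66. The added 1 shrinks the values of genes near 0 in Col. Without it the ratio of means was larger for HSD1 (43.6) and RGE1 (423.5) than for PSK2 (39.6), and smaller for GSTU4 (18.0) and E12A11 (7.36).

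The chromosomal neighbours differed between the genes. GPAT2, the acyltransferase gene that ends 3426 bases upstream of GA2OX6 on the same strand, was listed higher for MYB2-OE too, with 3.03, 2.84 and 2.85 FPKM against 1.00, 1.04 and 0.77 FPKM in Col. GPAT2 was not listed for MYB2-SRDX, where GA2OX6 was lower. The downstream neighbour AT1G02405, 222 bases away on the minus strand, stood in no table. The neighbours of PSK2, bZIP6 at 3970 bases upstream and EMB2001 at 1023 bases downstream, were in no table either.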

How the data were processed

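RNA was isolated with a column kit, reverse transcribed from random primers and read on a HiSeq or another sequencer, per the labels' protocols. The authors deposited FPKM per library and group means, per the file headers, in 3 tables of Col against 1 line each. The authors' log2 fold change and their p-value and Q-value were deposited in the same tables, per the file headers. The build was TAIR10, per the submitters' processing notes. The sources used here do not give the aligner, the counting tool or the test behind Q. Every listed gene had an absolute log2 above 1 and Q of at most 0.000999. Deposited means lay within 0.000667 FPKM of the library means. Since only called genes are listed, no test was run.

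Groups came from the genotype labels. The MYB2-SRDX columns carry no sample title, so these libraries are named by the digit that ends the column name. The labels do not state that the 3 samples per genotype were grown apart, so their spread may be technical. Means, SDs, ratios and ranks were computed with Python 3.11.15 and pandas 2.3.3. The search for the most alike genes was checked on simulated data, and the motif search on a made-up sequence. Sequences came from RefSeq TAIR10.1, matched by locus; all 141 genes of the 7 lists matched. Names that neither the files nor RefSeq give are replaced by the locus. Members and lists were chosen with earlier results of these data known. Named genes were the members, LBD29 and MYB2, every listed gene of the gibberellin and phytosulfokine lists, up to 6 listed genes per table of the other lists, the 5 most alike genes and the nearest protein-coding neighbours. Alternatives were pseudocounts of 0.1 and 1, geometric means, medians, a minimum of 1 FPKM and leaving out each library.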

Additional observations from a re-analysis of the deposited data

Results flagged for a closer look

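GA2OX6 lay above the Col mean in every MYB2-OE library (mean of 31.2 FPKM) and below it in every MYB2-SRDX library (mean of 3.46 FPKM). The difference between the lines was not tested, because the gene was chosen for its listed changes. SWEET14 (0.990 and 0.137 FPKM), HVA22D (87.2 and 15.7 FPKM), LHCB2.1 (10.6 and 0.503 FPKM), scpl31 (22.3 and 2.06 FPKM), G3Pp1 (42.4 and 6.24 FPKM) and PHO1;H1 (24.0 and 2.89 FPKM) had their MYB2-OE and MYB2-SRDX libraries on the same opposite sides of the Col mean, untested as well. All but SWEET14 of these were picked for their likeness to GA2OX6. AT5G05300 went the other way at low levels, with means of 0.0833 FPKM in LBD29-OE and 0.0400 FPKM in MYB2-OE, below the Col mean in every library, and 1.61 FPKM in MYB2-SRDX, above the Col mean in every library. There the MYB2-SRDX libraries overlapped those of Col, and the difference was not tested either.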

How the results depend on the processing

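No paired analysis was possible because the results come from no test, since the tables list called genes alone. The Col, LBD29-OE and MYB2-OE libraries carry replicate numbers, and those of MYB2-SRDX do not. For both genes the direction was kept under all 10 alternatives tried per line. The log2 ratio of GA2OX6 in MYB2-OE ran from 0.89 to 1.17 with 1 library left out and from 0.99 to 1.03 otherwise, and was under 2-fold in 4 of the 10. In MYB2-SRDX it ran from -2.35 to -1.92 and from -2.15 to -1.86. For PSK2 it ran from 5.13 to 5.68 and from 5.02 to 5.66. The counts of listed genes of the 4 lists were less stable. Keeping genes whose larger mean reached 1 FPKM left 0 higher gibberellin genes of 1 in LBD29-OE and 3 of 5 in MYB2-OE. In MYB2-SRDX 2 of 3 lower gibberellin genes were left. Of secreted peptide genes this minimum left 0 of 1 higher and 1 of 2 lower in LBD29-OE and 0 of 1 lower in MYB2-OE. Of hormone inactivation genes it left 1 of 2 higher in LBD29-OE and 3 of 5 in MYB2-OE. A recomputed fold with a pseudocount of 0.1 left 0 of 1 lower gibberellin genes in LBD29-OE, 4 of 5 higher in MYB2-OE and 2 of 3 lower in MYB2-SRDX. A pseudocount of 1, which shrinks the fold of low genes by construction, left 0 of 1 higher and 0 of 1 lower gibberellin genes in LBD29-OE, 0 of 5 higher and 1 of 2 lower in MYB2-OE and 1 of 3 lower in MYB2-SRDX. It left 0 of 1 lower phytosulfokine genes in LBD29-OE. Of secreted peptide genes it left 0 of 1 higher and 1 of 2 lower in LBD29-OE, 0 of 1 lower in MYB2-OE and 1 of 3 higher in MYB2-SRDX. Of hormone inactivation genes it left 1 of 2 higher in LBD29-OE, 3 of 5 higher in MYB2-OE and 1 of 3 lower in MYB2-SRDX. With any 1 library left out, the gibberellin counts ranged from 0 to 1 higher and 0 to 1 lower in LBD29-OE and from 3 to 5 higher and 1 to 2 lower in MYB2-OE. In MYB2-SRDX the gibberellin counts ranged from 2 to 3 lower. Those for phytosulfokine ranged from 0 to 1 lower in LBD29-OE, those for secreted peptides from 1 to 2 lower in LBD29-OE and from 0 to 3 higher in MYB2-SRDX, and those for hormone inactivation from 1 to 3 lower in MYB2-SRDX. Apart from the pseudocounts, the cause was not tested. Depth is not known, so counting error could not be given, and genes under the authors' thresholds have no value.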
